A study of Mus musculus with 47 samples.

Results

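Mouse embryonic stem (ES) cells that lack all 4 TCF/LEF factors (4XKO) were compared with ES cells that lack Tcf7, Tcf7l2 and Lef1 but keep Tcf7l1 (3XKO), both grown as naive cells. The comparison used 6 of the 47 Illumina expression arrays of the study, chosen by their titles: 3 arrays of 4XKO (Tcf7-/- Tcf7l1-/- Tcf7l2-/- Lef1-/-) and 3 arrays of 3XKO (Tcf7-/- Tcf7l2-/- Lef1-/-). The groups thus differ in the labels by Tcf7l1 alone, and both carry the other 3 deletions. All 6 cultures were in N2B27 medium with 1 uM PD0325901, an inhibitor of the kinase MEK, 3 uM CHIR99021, an inhibitor of the kinase Gsk3, and 1000 U/mL LIF, a cytokine that sustains self-renewal. The values are the intensities as the authors deposited them, with values under 1 set to 1 before log2 was taken. Further comparisons were the Tcf7l1 knockout (KO, Tcf7l1-/-) against wild type (WT) in the same medium, and 4XKO against 3XKO as epiblast-like cells (EpiLC) in N2B27 with 12 ng/mL Fgf2. The labels name 1 line per genotype and do not say which exons were deleted, so the genotype and any other difference between the lines cannot be told apart. The replicates are called biological triplicates. Except where stated otherwise, p-values measure only the spread between replicate arrays, pooled over the 39 arrays of 13 groups that were fitted together.

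TCF/LEF proteins are the DNA-binding partners of beta-catenin, the protein that carries the Wnt signal into the nucleus. Without beta-catenin they hold target genes down together with Groucho (TLE) co-repressors, and with it they can activate them. Inhibition of Gsk3 stabilises beta-catenin, and in mouse ES cells Tcf7l1 is known mainly as a repressor of genes of naive pluripotency, whose repression beta-catenin relieves.

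Tcf7l1 itself checks the labels. Its intensity was 1752, 1583 and 1586 on the 3XKO arrays and 742.8, 661.9 and 637.5 on the 4XKO arrays. The groups did not overlap, and the log2 difference was -1.27 ± 0.10 (SE, here and below, with 3 arrays a group, and adjusted p = 4.08e-10 in limma). A signal well above background stayed in 4XKO, higher than the mean of 193.9 in KO, against 1499 in WT. Whether the probe lies outside the deleted part was not tested. Tcf7l2 was 80.5, 76.9 and 78.7 in 3XKO and 72.9, 73.1 and 64.1 in 4XKO, with no call (adjusted p = 0.692), Lef1 was below the background limit on all 6 arrays, and Tcf7 had no named probe. Of the TCF/LEF list 1 of 3 measured genes was therefore lower (median -0.17), a count that the deletion itself sets. Between 3XKO and WT 0 of these 3 genes were called. The arrays thus check the Tcf7l1 label alone, and the deletions of Tcf7, Tcf7l2 and Lef1 rest on the labels.

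Each array held 25697 probes, of which between 44.55% and 44.58% were above a background limit of 13.6, which is how far the most negative of the values reached below 0 in the 39 arrays fitted together. Across all probes the arrays correlated at r = 0.967 to 0.974 within a group and at 0.958 to 0.969 between the groups. For 5 of the 6 arrays the highest correlation was with a replicate, and for 4XKO array 3 it was with a WT array. The mean r was 0.969 between 4XKO and WT, 0.963 between 3XKO and WT, and 0.963 between 4XKO and 3XKO, pairs that share arrays.

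Both lines expressed markers of naive ES cells. Of 20 measured naive pluripotency genes 2 were higher and 1 was lower in 4XKO, with a median log2 difference of -0.06. Over all 16590 named genes 7.44% were called higher and 6.91% lower, 14.4% together, with a median of 0. Of these genes 7581 were below the background limit on all 6 arrays. Among 5026 genes with a mean intensity over 100, 16.5% were higher and 14.5% lower, 31.0% together. Every list below is to be read against both sets of shares, the second for lists whose members were mostly well measured. Esrrb, an orphan nuclear receptor gene of the naive network, was 11034, 10390.0 and 10789 in 3XKO and 10073, 10073 and 9829 in 4XKO. Klf2, a Krüppel-like factor gene, was 2200.3, 2231 and 2363 in 3XKO and 2365, 2096 and 2217 in 4XKO. Esrrb lay slightly lower on each 4XKO array without passing the test (adjusted p = 0.385), and the Klf2 groups overlapped. Nanog, Tbx3, Klf4 and Zfp42, further transcription factor genes of this network, had log2 differences of -0.16, -0.09, -0.26 and -0.01, none of them called. The 3 calls were small. Tcl1, a co-activator of Akt, differed by 0.50 ± 0.16, Fgf4, the growth factor gene that primes cells to leave the naive state, by 0.79 ± 0.24 and Dppa3 by -0.49 ± 0.14. They were lost in 6, 5 and 4 of the 17 alternative settings.

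General pluripotency genes gave 2 higher and 1 lower of 10, with a median of 0.10. Pou5f1 (Oct4) and Sox2, its core factors, were not called, with log2 differences of -0.13 ± 0.15 and -0.32 ± 0.29. The RNA-binding protein gene Lin28a was higher (1.11 ± 0.18), as was Tcf15 (0.78 ± 0.13), a bHLH factor gene tied to exit from the naive state. Zfp281 was lower by the test (-0.72 ± 0.10), but it lies on chromosome 1 and was not called once each chromosome was centred (-0.18, adjusted p = 0.335).

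Across all probes 3265 of 25697 (12.7%) were called, 1711 higher and 1554 lower in 4XKO, of which 262 were below the background limit on all 6 arrays. At an unadjusted p under 0.05 there were 5852. The count fell to 1738 when only the 6 arrays being compared set the spread, with 850 higher and 888 lower.

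Of 24 measured Wnt/beta-catenin targets 5 were lower and 1 was higher in 4XKO (median -0.13), and 11 were below the background limit on all 6 arrays. With the spread of the 6 compared arrays alone 3 were lower, Sp5, Tnfrsf19 and Notum, and 1 was higher. The promoters of 3 of the 5 lower targets, Sp5, Axin2 and Tnfrsf19, are shown so that they can be read for the motif of TCF/LEF factors. They are the 250 bases before the start of each gene in the RefSeq table of mouse assembly GRCm38.p6, 5′ to 3′ on the strand of the gene. Capitals mark CTTTGAT or CTTTGAA, forms of the core of the TCF/LEF motif, on either strand. Other forms of the motif were not searched for.
Sp5, chr2:70474673-70474922, plus strand: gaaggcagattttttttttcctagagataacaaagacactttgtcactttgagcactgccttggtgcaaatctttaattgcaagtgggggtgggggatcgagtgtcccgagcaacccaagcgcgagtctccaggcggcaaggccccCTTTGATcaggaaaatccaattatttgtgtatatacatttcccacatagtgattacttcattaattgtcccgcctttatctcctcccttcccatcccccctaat
Axin2, chr11:108920099-108920348, plus strand: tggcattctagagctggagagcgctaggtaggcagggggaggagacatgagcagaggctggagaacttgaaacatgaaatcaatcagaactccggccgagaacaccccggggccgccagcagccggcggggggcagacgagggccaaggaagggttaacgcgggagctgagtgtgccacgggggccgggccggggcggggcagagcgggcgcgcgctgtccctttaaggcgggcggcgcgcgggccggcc
Tnfrsf19, first start, chr14:61046856-61047105, minus strand: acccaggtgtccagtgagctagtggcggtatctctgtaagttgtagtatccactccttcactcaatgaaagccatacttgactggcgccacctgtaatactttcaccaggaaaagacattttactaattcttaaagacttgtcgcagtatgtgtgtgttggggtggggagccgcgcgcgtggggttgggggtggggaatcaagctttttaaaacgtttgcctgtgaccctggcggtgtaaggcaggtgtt
Tnfrsf19, second start, chr14:61037988-61038237, minus strand: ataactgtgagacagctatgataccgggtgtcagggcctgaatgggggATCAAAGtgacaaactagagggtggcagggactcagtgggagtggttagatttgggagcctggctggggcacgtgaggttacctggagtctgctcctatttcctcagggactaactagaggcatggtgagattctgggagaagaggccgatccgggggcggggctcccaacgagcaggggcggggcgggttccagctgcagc
A marked form stood 97 bases before the start of Sp5 and 195 bases before the second start of Tnfrsf19, where it reads ATCAAAG. Neither of the other 2 windows held such a form. CTTTGAT or CTTTGAA was in 7.48% of all 32851 RefSeq promoters, and in 6.5% of the 16540 promoters of genes on the array. The match is a description of letters and shows no binding.

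Sp5, a transcription factor gene and direct Wnt target, was 97.3, 90.1 and 63.4 in 3XKO and 10.9, 24.2 and 21.3 in 4XKO. The groups did not overlap, 1 of the 4XKO values was under the background limit, and the log2 difference was -2.21 ± 0.37 (adjusted p = 7.11e-05). WT stood at 301 and KO at 439, so Sp5 was low in 3XKO and lower still in 4XKO. Tnfrsf19, which encodes the receptor TROY, was 82.1, 80.4 and 79.4 in 3XKO and 9.3, 12.3 and 15.5 in 4XKO. All 3XKO arrays were far above all 4XKO arrays, 2 of which were under the limit (-2.74 ± 0.18, adjusted p = 4.5e-12). Unlike Sp5, Tnfrsf19 was not called between 3XKO and WT (0.41).

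Axin2, the feedback inhibitor of Wnt signalling most often used to read the pathway, was 48.7, 41.9 and 65.0 in 3XKO and 36.9, 27.1 and 26.1 in 4XKO. The groups were close without overlapping (-0.78 ± 0.15, adjusted p = 0.000378). The adjusted p was 0.157 with the spread of the compared arrays alone, which ends the call, and 9.45e-05 to 0.00687 in the 6 fits that left out 1 array. WT stood at 198.1 and KO at 201.1, so most of the distance of 4XKO from WT (-2.73) was already there in 3XKO (-1.95). Apcdd1, a membrane inhibitor of Wnt signalling, was 73.9, 62.9 and 76.3 in 3XKO and 32.3, 16.1 and 27.2 in 4XKO (-1.55 ± 0.35, adjusted p = 0.00216), a call also lost with the spread of the compared arrays. Notum, which encodes a secreted enzyme that inactivates Wnt proteins, was 217.1, 227.4 and 208.7 in 3XKO and 145.2, 148.3 and 147.2 in 4XKO (-0.57 ± 0.13, adjusted p = 0.0019). Nkd2, an inhibitor of Dishevelled, was the 1 higher target. It stayed below background in 3XKO, was at least 1.09-fold higher, and was not called at the higher floors. Ccnd1, Fst and Cdx1, targets with measurable signal, had log2 differences of -0.15, -0.35 and 0.08 without a call. For Ccnd1, 1 of its 2 other probes was called lower.

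Among 31 measured Wnt ligands, receptors and secreted inhibitors 5 were lower and 1 higher (median 0), and 14 were below the limit. Porcn, the acyltransferase that makes Wnt proteins ready for secretion, was 167.7, 180.2 and 163.8 in 3XKO and 50, 67.3 and 49.9 in 4XKO. The 2 sets of arrays stood well apart (-1.63 ± 0.09, adjusted p = 3.74e-13). Wls, the carrier that takes Wnt proteins to the cell surface, was 31.9, 48.1 and 53.1 in 3XKO and 15.5, 14.1 and 17.1 in 4XKO, a lower level on each 4XKO array (-1.48 ± 0.34, adjusted p = 0.003). Fzd7, a Frizzled receptor gene of ES cells, was 550.1, 568.6 and 653.2 in 3XKO and 290.7, 260.7 and 314.0 in 4XKO (-1.03 ± 0.11, adjusted p = 9.71e-08). It lies on chromosome 1, and with each chromosome centred the difference was -0.50 (adjusted p = 0.00183). The ligand gene Wnt6, also on chromosome 1, differed by -1.10 ± 0.28 and was not called once centred (adjusted p = 0.264). The ligand gene Wnt5b was near the limit (-1.08 ± 0.29), and its call was lost in 5 settings. Sfrp1, a secreted Wnt antagonist, was higher at 1060.3, 1081 and 1004 against 617.0, 647.5 and 719.6 (0.67 ± 0.10, adjusted p = 1.64e-05). Without chromosomes 1 and 6, 1 of 25 was higher and 2 were lower.

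Of 19 measured genes of the beta-catenin complex and its co-repressors 2 were higher and 1 was lower (median 0). Ctnnb1, which encodes beta-catenin, was 3105, 3204 and 3217 in 3XKO and 2435, 2975 and 2655 in 4XKO, lower on each array but not called (-0.24 ± 0.12, adjusted p = 0.206). Tle1, a Groucho co-repressor gene, was 173.9, 156.8 and 136.9 in 3XKO and 94.8, 100.5 and 110.0 in 4XKO (-0.61 ± 0.11), and was not called with the spread of the compared arrays. Pygo1, a co-activator that binds the complex through Bcl9, was higher by 1.55 ± 0.37, from 14.0, 10.0 and 13.8 to 34.2, 35.8 and 39.5. The histone deacetylase gene Hdac1 just passed the test (0.42 ± 0.14, adjusted p = 0.0442) and lost it in 7 settings.

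**Figure D1:**
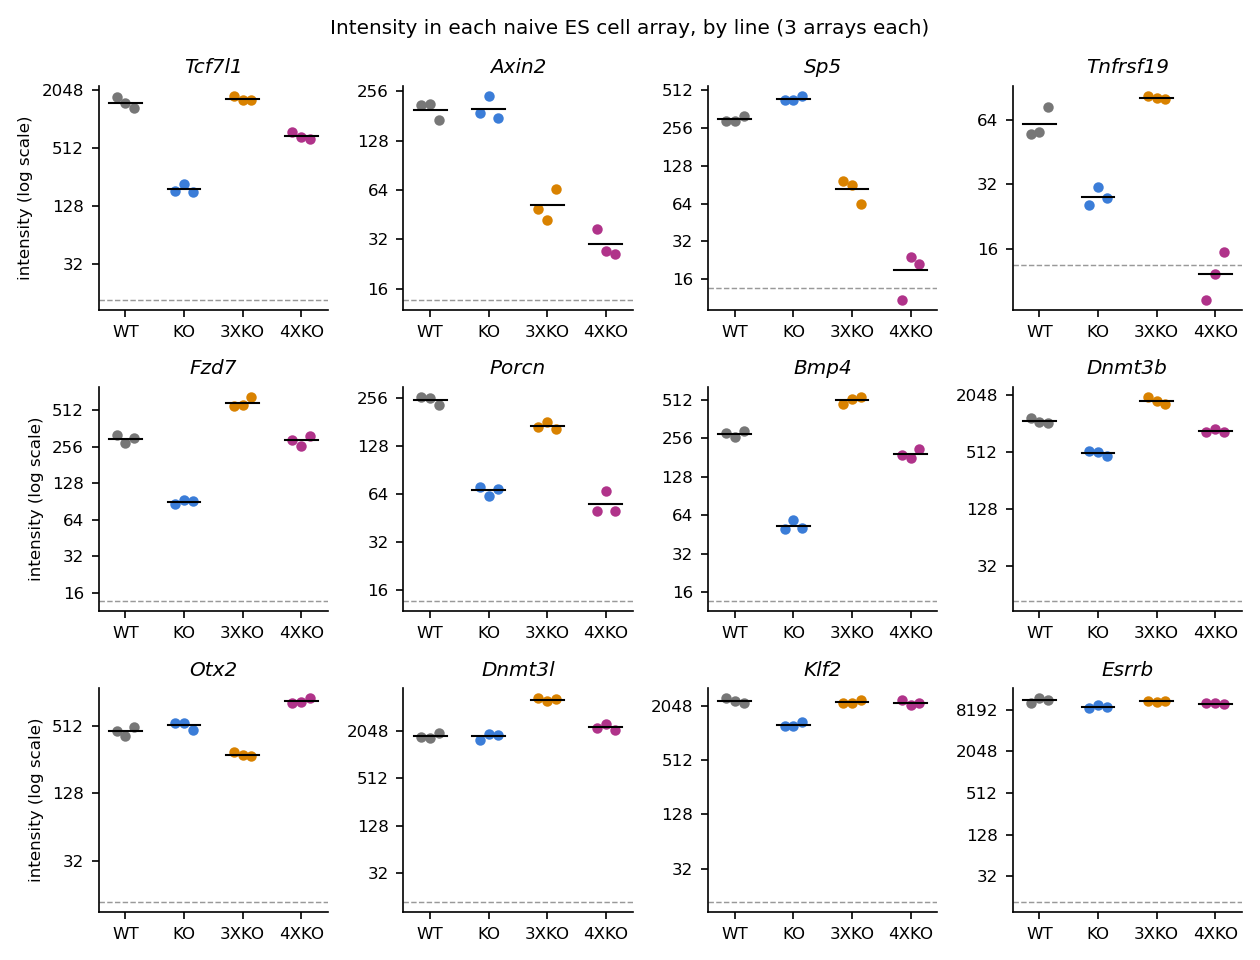
Intensity (log axis) of 12 genes on each naive ES cell array of WT, KO, 3XKO and 4XKO, with the group mean as a bar and the background limit of 13.6 as a dashed line. Sp5 runs from 301 in WT over 63.4 to 97.3 in 3XKO to 10.9 to 24.2 in 4XKO, while Klf2 and Esrrb differ little between 3XKO and 4XKO.

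Formative and primed genes went both ways, 3 higher and 3 lower of 20 (median 0.29), and 10 were below the limit. Otx2, a homeobox gene of the formative epiblast, was 294.9, 279.1 and 273.5 in 3XKO and 815.5, 839.3 and 899.6 in 4XKO (1.59 ± 0.09, adjusted p = 1.79e-13). The groups were far apart, with WT between them at 458.3. Pou3f1 (Oct6), a POU factor gene of the same state, was below background in 3XKO and 31.1, 24.2 and 32.3 in 4XKO, at least 2.13-fold higher (adjusted p = 2.31e-05), and was not called with the spread of the compared arrays. Sall2 was a small call with overlapping groups (0.84 ± 0.22), lost in 3 settings.

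The lower formative genes included 2 of the DNA methylation genes. Dnmt3b, a de novo DNA methyltransferase, was 1938, 1764 and 1630.4 in 3XKO and 824.3, 884.6 and 835.4 in 4XKO (-1.06 ± 0.08, adjusted p = 1.93e-10). Dnmt3l, its catalytically inactive partner, was 5344, 4883 and 5182 in 3XKO and 2209, 2499 and 2132 in 4XKO (-1.17 ± 0.08, adjusted p = 4.5e-12). Each stood lower on every 4XKO array. Dnmt3l in 3XKO was above its WT level of 1771 (1.54), and in 4XKO closer to it (0.36). Grhl2, an epithelial transcription factor gene, was 453.4, 461.6 and 649.0 in 3XKO and 216.8, 180.3 and 215.9 in 4XKO (-1.34 ± 0.12). In the list of DNA methylation and demethylation enzymes 3 of 9 were lower and 0 higher (median -0.14), the third being Mbd3 (-0.50 ± 0.13), a call lost in 3 settings. The maintenance genes Dnmt1 and Uhrf1 had differences of 0.17 and -0.14 without a call. Of 16 germline and methylation-sensitive genes 2 were lower and 0 higher (median -0.06), Stk31 (-1.53 ± 0.26) and the X-linked homeobox gene Rhox5 (-0.44 ± 0.07).

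In the Nodal, activin and BMP list 4 genes were higher and 1 lower of 20 (median 0.21), and 2 were higher and 2 lower with the spread of the compared arrays alone, where Lefty1, Bmp7 and Gdf3 were not called. Bmp4, a ligand of the BMP branch, was 477.5, 518.2 and 536.5 in 3XKO and 188.6, 180.5 and 209.4 in 4XKO (-1.41 ± 0.10, adjusted p = 3.55e-11). Lefty2, a feedback inhibitor of Nodal, was higher, at 985.9, 856.6 and 949.2 against 487.1, 491.6 and 547.0 (0.87 ± 0.20, adjusted p = 0.00235). Its neighbour in function Lefty1 was higher by 0.68 ± 0.16. Both lie on chromosome 1, whose genes were mostly lower, and centring raised the differences to 1.41 and 1.22. The ligand gene Bmp7 was higher (1.13 ± 0.25), and Gdf3 on chromosome 6 was higher by 0.40 ± 0.09 but not called after centring (adjusted p = 0.218). Nodal had a difference of -0.03, not called. Without chromosomes 1 and 6, 1 of 16 was higher and 1 lower.

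In the p53 and stress list 6 of 14 genes were lower and 0 higher (median -0.55), and 5 of 11 were lower without chromosomes 1 and 6. Cdkn1a, which encodes the cell cycle inhibitor p21, was 1835, 1791 and 1834 in 3XKO and 1147, 1035 and 1138 in 4XKO (-0.72 ± 0.11, adjusted p = 1.6e-05). Ddit3 (CHOP), a factor of the endoplasmic reticulum stress response, was 791.2, 1007 and 990.6 in 3XKO and 367.4, 335.2 and 256.1 in 4XKO (-1.55 ± 0.20, adjusted p = 1.67e-06). Both genes were lower on every 4XKO array. Against WT, Cdkn1a was not called in 3XKO (-0.25) and was lower in 4XKO (-0.97), whereas Ddit3 was higher in 3XKO (1.77) and not called in 4XKO (0.22). Mdm2, the ubiquitin ligase of p53, Trp53inp1 and the cell death gene Bbc3 (Puma) were lower by the test, with log2 differences of -0.53 ± 0.13, -0.70 ± 0.10 and -0.63 ± 0.14. Phlda3, on chromosome 1, had -0.85 ± 0.11 and was not called once centred (adjusted p = 0.0919). The Bbc3 call was lost with the spread of the compared arrays. Against WT, 4 of the 14 listed genes were higher and 0 lower in 3XKO (median 0.40). In 4XKO 1 was higher and 1 lower than in WT (median -0.02), and in KO 0 were called.

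Cell cycle genes gave 1 higher and 2 lower of 16 (median 0). Cdkn1c, an imprinted gene for the inhibitor p57, was 69.4, 66.6 and 51.4 in 3XKO and 11.6, 18.7 and 18.0 in 4XKO (-1.98 ± 0.14, adjusted p = 3.07e-11). The cyclin gene Ccne2 was higher (0.94 ± 0.22), and Ccnd2 was lower near the limit with overlapping groups (-1.04 ± 0.30), a call lost in 7 settings. With the spread of the compared arrays the Ccne2 call was lost too. Of 13 glycolysis and hypoxia genes 2 were higher and 0 lower (median 0.18), the angiogenic factor gene Vegfa (1.03 ± 0.20) and the oxygen sensor gene Egln3 (1.01 ± 0.27). The Vegfa call was lost with the spread of the compared arrays, that of Egln3 without 4XKO array 2. Of 14 LIF/Stat3 targets 2 were higher and 0 lower (median 0.01). These were the kinase gene Pim3, at 1150.3, 1344 and 1101 against 591.7, 635.3 and 769.3 (0.85 ± 0.12), and the cytokine signalling inhibitor gene Cish (1.07 ± 0.24), while Socs3 had 0.59 without a call. FGF/ERK feedback genes gave 2 higher and 2 lower of 16 (median 0.12). Ier3 was higher (1.13 ± 0.22, not called with the spread of the compared arrays), the early response gene Egr1 was at least 2.17-fold higher from below background, and Phlda1 (-1.02 ± 0.18) and Etv5 (-0.49 ± 0.11) were lower.

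Markers of other cell types were mostly dim, and in bulk arrays fewer cells of a type and less RNA per cell cannot be told apart. Extraembryonic endoderm markers gave 3 higher and 2 lower of 16 (median -0.25), with a summed intensity of 4108 to 4362 in 4XKO and 3643 to 4005 in 3XKO. The defining factors Gata4 and Foxa2 were below the limit in both lines. Gata6, the factor that specifies primitive endoderm, was 55.6, 56.8 and 44.8 in 3XKO and 20.9, 17.4 and 19.4 in 4XKO (-1.44 ± 0.28, adjusted p = 0.000517), with the groups apart. The basement membrane collagen genes Col4a1 (0.71 ± 0.10) and Col4a2 (0.47 ± 0.13) were higher, Sox7 was at least 2.53-fold higher from below background, and the endocytic adaptor gene Dab2 was lower (-0.75 ± 0.25) in a call lost in 8 settings, and 1 of its 2 other probes was called higher. The Col4a2 call was lost in 3 settings, 1 of them the spread of the compared arrays and the others without 4XKO array 2 and without 3XKO array 1.

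Gata6 was also the 1 of 18 primitive streak and mesendoderm genes that was called lower, with 0 higher (median -0.05). There 10 genes, among them Mixl1 and Mesp1, were below the limit, and the list summed to 375.8 to 417.5 in 4XKO and 329.5 to 356.7 in 3XKO. Of 15 neural genes 1 was higher and 1 lower (median 0.50), and 11 were below the limit, including Sox1 and Pax6. The sum was 1773 to 1985 in 4XKO and 1942 to 2045 in 3XKO, most of it from Sox21. The higher gene, Insm1, was below the limit in both lines, and Map2 (-0.60 ± 0.15) lies on chromosome 1 and was not called after centring (adjusted p = 0.932). Trophoblast markers gave 1 higher and 1 lower of 13 (median -0.12), Tfap2c (0.37 ± 0.09) and Elf5, which was below the limit in both lines, as was Cdx2, and summed to 2675 to 2835 in 4XKO and 2214 to 2354 in 3XKO. Of 12 fibroblast markers Thy1 was lower (-0.69 ± 0.16), 0 were higher (median -0.19) and 8, such as Col1a1 and Col3a1, were below the limit, with sums of 723.4 to 977.6 in 4XKO and 752.6 to 826.2 in 3XKO. None of the 8 measured 2-cell-like genes was called in limma (median -0.33), and 6 were below the limit. The part of other cell types in the results was not tested.

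**Figure D2:**
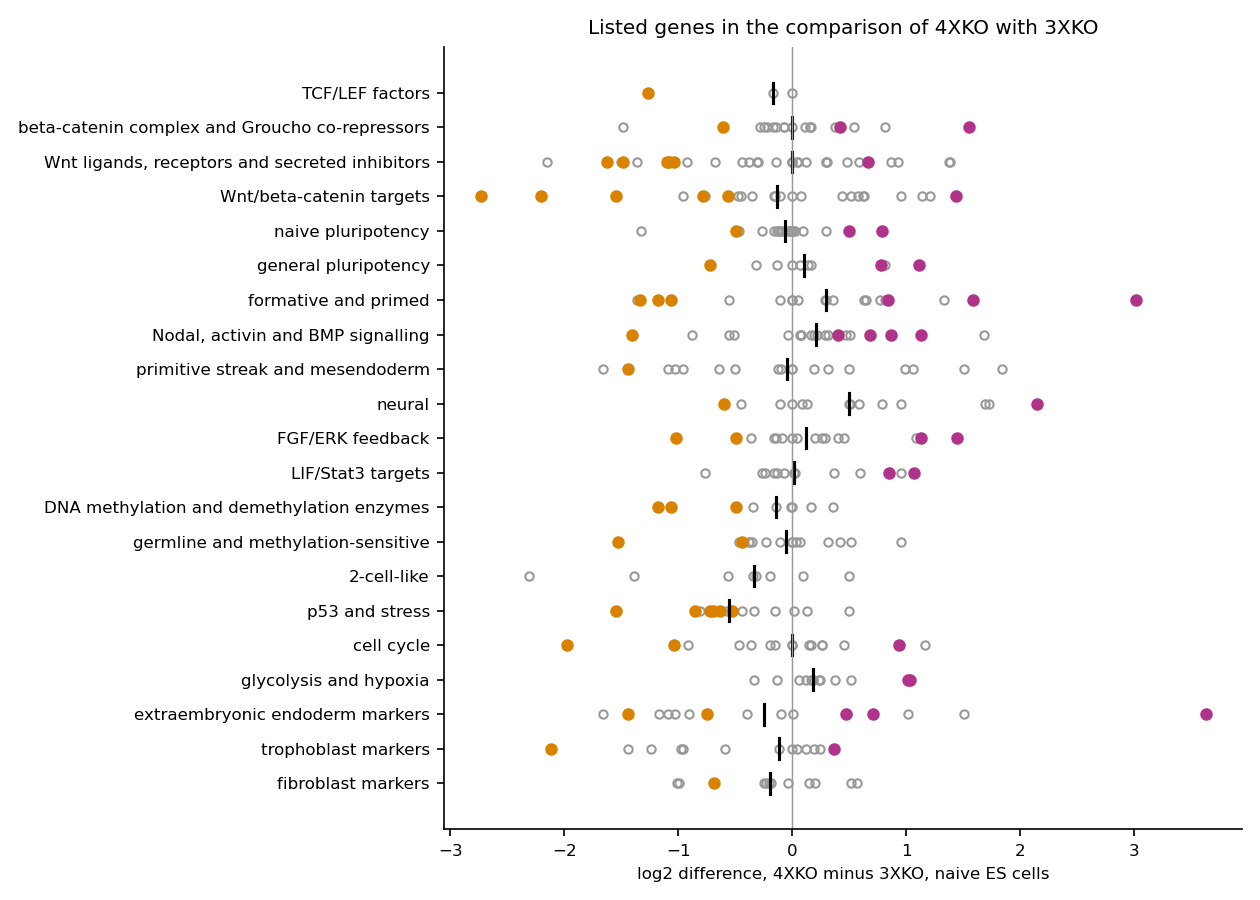
Log2 difference, 4XKO minus 3XKO, of each measured gene of 21 lists, with genes called higher in purple, called lower in orange, not called as open circles, and the list median as a black bar. The p53 and stress list holds 6 lower and 0 higher genes, and the naive list sits around its median of -0.06.

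Chromosomes 1 and 6 stood apart from all others. Among genes with a mean intensity over 100, where 1559 of 5026 (31.0%) were called, 16.5% higher and 14.5% lower, chromosome 1 had 176 of 240 genes (73.3%) lower and 8 (3.33%) higher. Its median log2 difference was -0.50. Chromosome 6 had 101 of 256 genes (39.5%) higher and 13 (5.08%) lower, with a median of 0.24. The medians of the other 18 chromosomes lay between -0.02 and 0.08, and of their 4529 genes 15.9% were higher and 11.9% lower.

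The shift lay with the 3XKO arrays. Set against the mean of the WT arrays, the chromosome 1 median was 0.50, 0.51 and 0.48 on the 3XKO arrays and -0.03, 0.01 and 0.00 on the 4XKO arrays. It was present along the whole chromosome, since each of 8 stretches of 30 genes had a median between -0.66 and -0.39 for 4XKO minus 3XKO. In EpiLC and in EpiLC given CHIR99021, the 3XKO median against WT was 0.50 and 0.55. For chromosome 6 the medians against WT were -0.22 in 3XKO, 0.01 in 4XKO and 0.17 in KO, all of them on the naive arrays. The number of chromosome copies was not measured, and a copy difference and the loss of Tcf7l1 cannot be told apart for a gene of these chromosomes. With chromosome 1 left out 2884 probes were called, 1667 of them higher, and with each chromosome centred 2959 were.

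**Figure D3:**
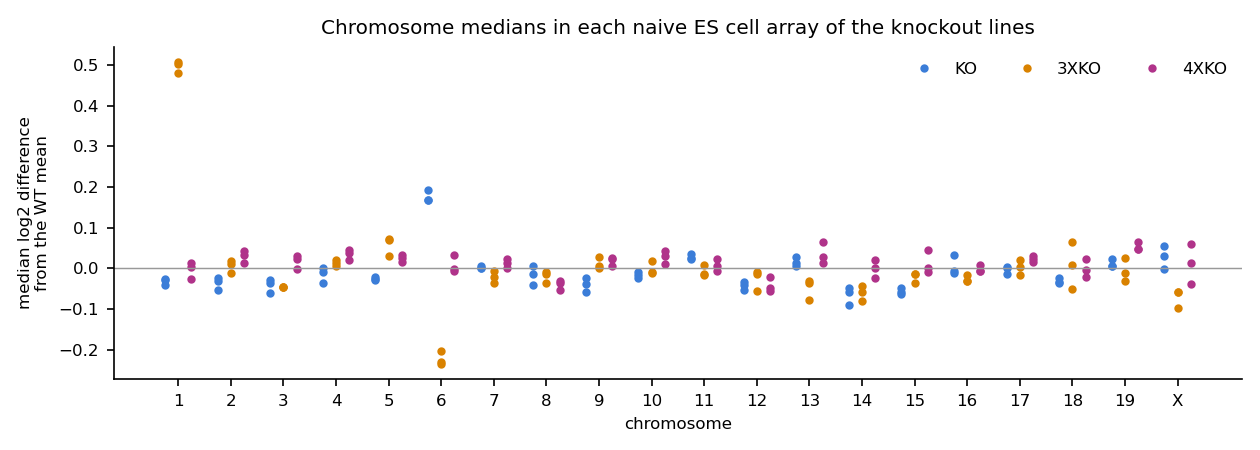
Median log2 difference from the WT mean of the genes of each chromosome, with 1 point for each of the 3 naive arrays of KO, 3XKO and 4XKO. The 3XKO arrays sit at 0.48 to 0.51 on chromosome 1 and at a median of -0.22 on chromosome 6, while the 4XKO arrays lie near 0 on both.

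Single genes of these chromosomes went well past the shift. Aox3, an aldehyde oxidase gene of chromosome 1, was 313.6, 264.4 and 367.0 in 3XKO and 5.7, 16.4 and 12.1 in 4XKO (-4.91 ± 0.52, adjusted p = 5.87e-08, and -4.37 after centring). Inpp5d (SHIP1), a phosphatase gene that limits PI3K signalling, was 498.5, 534.5 and 446.0 in 3XKO and 99.4, 118.1 and 102.3 in 4XKO (-2.21 ± 0.13, and -1.68 after centring). Against the trend of chromosome 1, Nuak2, a kinase gene related to AMPK, was higher at 352.3, 323.7 and 362.7 against 144.5, 134.5 and 126.5 (1.36 ± 0.11), as were Dner (1.90 ± 0.26) and Kiss1 (1.67 ± 0.33).

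On chromosome 6, Trh, which encodes thyrotropin-releasing hormone, was 1879, 2014 and 2286 in 3XKO and 7737, 8296 and 7482 in 4XKO (1.93 ± 0.09, adjusted p = 7.93e-15). The eye field homeobox gene Vax2 was 4.2, 5.3 and 16.6 in 3XKO and 164.9, 142.4 and 134.8 in 4XKO (4.35 ± 0.59), the largest positive difference among genes above the limit on at least 1 array of both groups. Its 3XKO values of 4.2 and 5.3 were under the limit, so the size of the difference is less certain. Eps8, an actin regulator gene, was lower against the trend of the chromosome (-1.82 ± 0.15).

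Outside the lists and chromosomes 1 and 6, several of the largest differences were of genes that were low in 3XKO and near WT in 4XKO. Rgcc, a cell cycle regulator gene that responds to complement, was 19.5, 22.1 and 30.3 in 3XKO and 404.7, 436.0 and 485.0 in 4XKO (4.23 ± 0.72, adjusted p = 9.09e-05), against 311.1 in WT. Copz2, a coatomer subunit gene, was 40.2, 35.7 and 36.9 in 3XKO and 357.5, 320.7 and 360.7 in 4XKO (3.20 ± 0.14, adjusted p = 1.08e-15), against 321.8 in WT. Neither group of arrays came near the other for these genes. Napsa, an aspartic protease gene, and Plxdc1 had differences of 3.42 ± 0.40 and 3.25 ± 0.20, the first with 2 further probes called the same way. Tgm2, the tissue transglutaminase gene, was higher by 2.43 ± 0.22, and Pdgfb, Col9a2, Arhgap45, Fgg and Gm5797 by 2.48 to 2.93. Not every gene followed the pattern, as Fgg had means of 19.4 in WT, 12.4 in 3XKO and 83.5 in 4XKO. From below background in 3XKO, Ms4a6d was at least 4.78-fold and Padi2 at least 4.40-fold higher. The calls of Ms4a6d, Padi2, Fgg and Gm5797 were lost with the spread of the compared arrays alone.

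The genes that were lower in 4XKO included several that were raised in 3XKO. Gm14685, an X-linked gene, was 439.8, 487.1 and 426.0 in 3XKO and 15.2, 13.5 and 22.2 in 4XKO (-4.76 ± 0.20, adjusted p = 6.63e-16), against 36.1 in WT, though its other probe was not called. Igf2, the imprinted insulin-like growth factor gene, was 101.1, 79.0 and 78.9 in 3XKO and 15, 7.5 and 10.9 in 4XKO (-3.00 ± 0.16, adjusted p = 1.28e-13), against 59.0 in WT and 192.5 in KO. Its 4XKO values of 7.5 and 10.9 were under the background limit, and all its 4XKO values lay below the WT level. The groups did not overlap for either gene. Fgl1, Ahsg, Ldoc1, Tph2 and Fgfbp1 had differences from -2.68 to -2.28, and Fam181b had -3.25 ± 0.58, not called with the spread of the compared arrays. Akr1c18, a hydroxysteroid dehydrogenase gene, was 118.8, 115.6 and 103.9 in 3XKO and below background in 4XKO, at least 8.28-fold lower. Akr1cl, its relative on chromosome 1, was at least 10.0-fold lower and Xlr5a, of an X-linked multigene family whose copies may share a probe, at least 7.40-fold.

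Set against WT, whose arrays both comparisons share, 3XKO differed in 2532 of 16590 genes (15.3%) and 4XKO in 1100 (6.63%). Both counts include chromosomes 1 and 6, whose medians against WT were 0.48 and -0.22 in 3XKO but -0.004 and 0.012 in 4XKO. How much of the gap between the counts goes with these chromosomes was not tested.

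Loss of Tcf7l1 was then compared with and without the other factors, using KO minus WT, which shares no array with 4XKO minus 3XKO. In KO minus WT 849 genes (5.12%) were higher and 954 (5.75%) lower. Of the genes lower in 4XKO 211 were also lower in KO, 18.4% of 1147 and 22.1% of 954, and 120 were higher in KO. Of the genes higher in 4XKO 222 were also higher in KO, 18.0% of 1235 and 26.1% of 849, and 138 were lower. Across 5026 genes with a mean over 100, which are not independent replicates, the log2 differences correlated at r = 0.183, and at 0.147 over 4530 genes outside chromosomes 1 and 6.

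Genes that were lower both times included Porcn (-1.63 here and -1.88 in KO), Wls (-1.48 and -1.84), Fzd7 (-1.03 and -1.72), Bmp4 (-1.41 and -2.39), Dnmt3b (-1.06 and -1.12), Grhl2 (-1.34 and -1.69), Cdkn1c (-1.98 and -1.75), Notum (-0.57 and -1.22) and Tle1 (-0.61 and -0.80). Higher both times were Lin28a (1.11 and 0.93), Ier3 (1.13 and 1.28), Lefty1 (0.68 and 1.27), Egln3 (1.01 and 1.47) and Ccne2 (0.94 and 0.94). Of these calls in 4XKO minus 3XKO, those of Tle1, Ier3, Lefty1 and Ccne2 were lost with the spread of the compared arrays and that of Egln3 without 4XKO array 2. Fzd7 lies on chromosome 1, and its 4XKO minus 3XKO difference was -0.50 with each chromosome centred. Outside the lists, and chosen after their values were seen, Pglyrp1 (-2.04 and -1.89) and Slitrk5 (-1.93 and -3.02) were lower both times. Crabp1 (2.35 and 2.10), a retinoic acid binding protein gene, Tgm2 (2.43 and 2.04), the keratin gene Krt17 (2.24 and 1.45) and Il4i1 (1.44 and 1.34) were higher both times.

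The difference of the 2 effects was tested directly, and 1931 of 16590 genes (11.6%) were called, among 2602 probes. With chromosome 1 left out 2342 probes were called, and with each chromosome centred 2258 were. Several named genes that were lower here were higher or not called in KO. Sp5 differed by -2.75 ± 0.52 between the effects, Axin2 by -0.80 and Dnmt3l by -1.16, with KO minus WT at 0.54, 0.02 and -0.01. The Axin2 difference was not called with the spread of the compared arrays alone or without 3XKO array 3. Igf2 differed by -4.71 and Gata6 by -3.03, both higher in KO (1.70 and 1.59). Dppa3, a maternal factor gene of the naive list, was 301.4 in KO against 31.0 in WT (3.29), and -0.49 here, a difference of -3.79. Col4a1 and Col4a2 were higher in both, but less here (differences of -1.76 and -2.36). Otx2 was higher here and not called in KO (0.17), a difference of 1.42, and Bmp4 fell less here (0.99). The probe signal of Tcf7l1 itself fell further in KO, with a difference of 1.68, and the loss of its signal was thus unequal in the effects compared. Both lines are labelled as lacking Tcf7l1. Tcf7l1 and Dppa3 lie on chromosome 6, whose median against WT was -0.22 in 3XKO and 0.17 in KO. Among genes above the limit in at least 1 group, the largest differences were of Tmprss2, Dram1, Fhl2 and Myl3, whose levels lay near or under the background limit in most groups, so no fold is given.

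**Figure D4:**
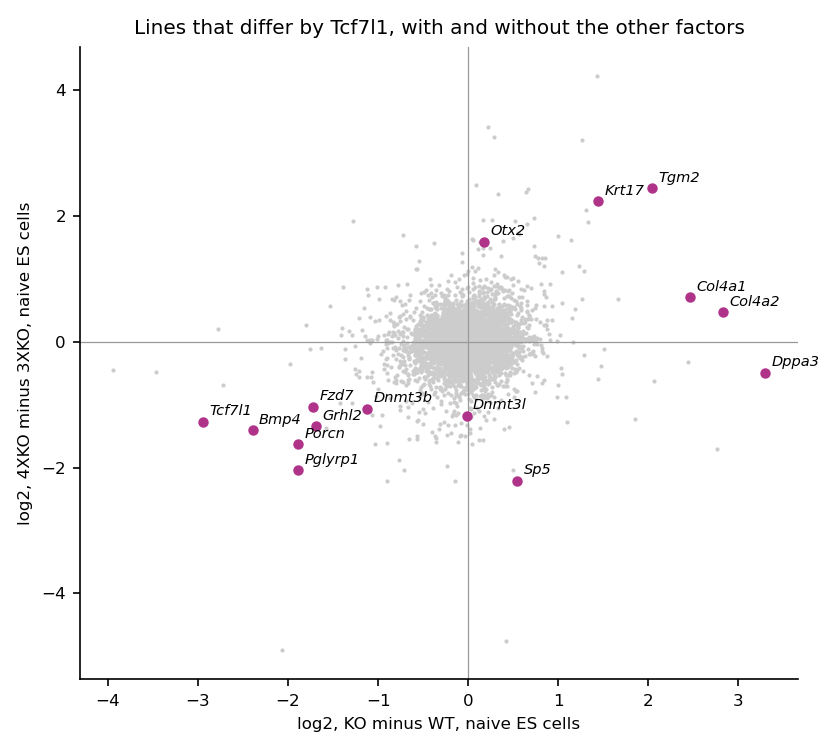
Log2 difference of 4XKO minus 3XKO (vertical) against KO minus WT (horizontal) in naive cells for genes with a mean intensity over 100 (grey), with named genes marked in purple whatever their level. Porcn, Bmp4, Fzd7 and Dnmt3b lie at the lower left, Tgm2 and Krt17 at the upper right, while Dppa3 and Sp5 were higher in KO and lower here, the Sp5 difference in KO not being called.

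The same pair of lines was compared in EpiLC, where PD0325901, CHIR99021 and LIF are absent and Fgf2 is present. There 2012 genes (12.1%) were higher and 1934 (11.7%) lower in 4XKO. Of the genes higher in naive 4XKO 568 were also higher in EpiLC, 46.0% of 1235 and 28.2% of 2012, and of the lower 562 were also lower, 49.0% of 1147 and 29.1% of 1934. Another 147 and 140 went the opposite way. Without chromosomes 1 and 6 the shared genes were 474 higher (43.4% of 1092) and 385 lower (44.2% of 872). The log2 differences correlated at r = 0.375 over 5026 genes and at 0.323 without chromosomes 1 and 6. Genes with a like sign in both included Vax2 (4.35 and 3.64), Trh (1.93 and 2.81), Igf2 (-3.00 and -2.84), Dnmt3b (-1.06 and -1.68), Fzd7 (-1.03 and -1.52) and Ddit3 (-1.55 and -2.94). Vax2 and Trh lie on chromosome 6 and Fzd7 on chromosome 1. The medians of these chromosomes kept their sign in EpiLC, at 0.33 and -0.45 for 4XKO minus 3XKO.

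The difference between naive cells and EpiLC was called for 2338 of 16590 genes (14.1%), among 3132 probes. Naive genes, mostly not called between the lines in ES cells, were higher in 4XKO than in 3XKO as EpiLC, 13 of 20 with 1 lower (median 1.03), and the difference of differences was called higher for 12 and lower for 1. Klf2 had -0.03 in naive cells and 2.35 in EpiLC, a difference of 2.37 ± 0.13, Tbx3 -0.09 and 2.35, Esrrb -0.10 and 1.66, and Tcl1 0.50 and 2.60. Formative genes gave 1 higher and 11 lower of 20 in EpiLC (median -0.85), with Pou3f1 at -3.93 and Otx2 at -0.66, where both were higher in naive 4XKO.

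Several Wnt targets, the secretion gene Porcn and the BMP ligand gene Bmp4 changed sign between the media, while the receptor gene Fzd7 was lower in both. Axin2 was lower in naive 4XKO (-0.78) and higher in 4XKO EpiLC (1.59), a difference of 2.37 ± 0.21. Sp5 went from -2.21 to 2.15, Tnfrsf19 from -2.74 to 0.93, Notum from -0.57 to 1.32, Porcn from -1.63 to 2.07 and Bmp4 from -1.41 to 1.70, each called in both media and in the test of the difference. Of the 24 Wnt targets 4 were higher and 3 lower in EpiLC, and the difference was called higher for 5 and lower for 1. Several factors of the media change at once, so which of them goes with the change of sign was not tested.

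**Figure D5:**
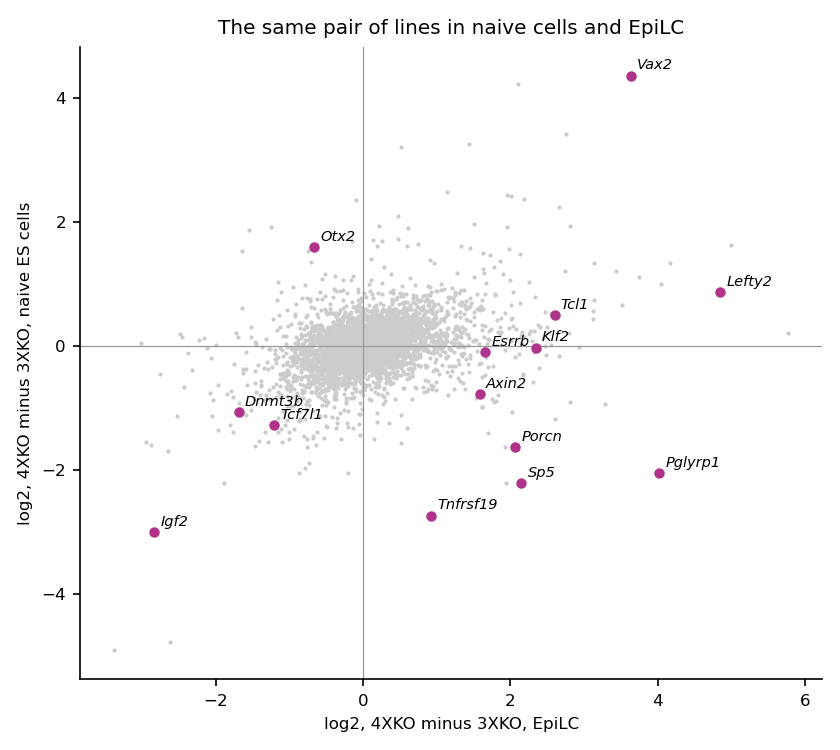
Log2 difference of 4XKO minus 3XKO in naive cells (vertical) against EpiLC (horizontal) for genes with a mean intensity over 100 in naive cells (grey), with named genes marked in purple whatever their level. Vax2 and Igf2 keep their sign, Axin2, Sp5, Tnfrsf19, Porcn and Pglyrp1 lie at the lower right, and Klf2 and Esrrb lie near 0 on the vertical axis.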

How the data were processed

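The deposited intensities, processed by the authors, were used as given. Per the submitters' processing notes, the tools lumi and limma were used, and no version is recorded. Values below 0 and nearly identical sorted values (within 0.73% across 39 arrays) show that background subtraction and quantile-like normalization had been applied before deposit. No second normalization was made.

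Values under 1, 31.2% to 31.4% of an array, were set to 1 and log2 was taken. A means model with 13 groups of 3 arrays was fitted to the 39 arrays in limma 3.58.1 (R 4.3.3, lmFit and eBayes), so that all groups shared the spread, with 26 residual degrees of freedom. The p-values were adjusted by Benjamini-Hochberg across the 25697 probes, and a probe under 0.05 counted as called. The other 8 arrays, normalized separately, were not used here. A single gene symbol was known for 23978 probes and no symbol for 1719. The 16590 genes were each read from its probe with the highest mean. 4776 genes had several probes. A group whose 3 arrays lie under 13.6 is called below background. A fold of at least N is then the other group over that limit, and none is given where both are below. Fitted changes near this floor depend on it.

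Named genes were the TCF/LEF factors, list members called (others as values), the largest differences measured in both groups, bounds for genes below background in 1 group, and the 5 largest on chromosomes 1 and 6. The members and the 21 lists (337 genes, 302 measured) were chosen with earlier results of these data known. Same-numbered arrays of 4XKO and 3XKO had deviations correlated at r = 0.051, 0.188 and 0.018, so the numbers were not taken as pairs. Alternatives were a second quantile normalization, cyclic loess, 2 higher floors, a filter on dim probes, trended and robust eBayes, the replicate block, the spread of the compared arrays alone, 1 probe per gene, chromosome 1 left out, each chromosome centred, and each array left out. Promoters and chromosomes came from RefSeq tables of GRCm38.p6. The code was tested on simulated data with known changes. Figures were drawn in matplotlib 3.10.9 under Python 3.11.15.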

Additional observations from a re-analysis of the deposited data

Results flagged for a closer look

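With 3 arrays a group, single arrays were not tested as outliers. The results listed are differences between 2 effects that passed the direct test of the difference in limma.

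Between the effect of Tcf7l1 loss without and with the other TCF/LEF factors 2602 probes differed. The count was 2342 with chromosome 1 left out and 2258 with each chromosome centred. On the log2 scale, 4XKO minus 3XKO less KO minus WT was 1.68 for Tcf7l1, 1.42 for Otx2 and 0.99 for Bmp4. It was -3.79 for Dppa3, -1.76 for Col4a1, -2.36 for Col4a2 and -3.03 for Gata6. The growth factor gene Igf2 had -4.71 and the methylation cofactor gene Dnmt3l had -1.16. Among Wnt targets Sp5 had -2.75, Axin2 -0.80 and Tnfrsf19 -1.62. The Axin2 difference was not called with the spread of the compared arrays alone or without 3XKO array 3. In the stress list Ddit3 had -0.98 and Phlda3 -1.01. The Ddit3 call was lost in 5 of the fits that left out 1 array, those without 3XKO array 2 or 3, 4XKO array 3, KO array 3 or WT array 2. Phlda3 lies on chromosome 1, and once each chromosome was centred neither this difference nor 4XKO minus 3XKO was called (adjusted p = 0.0919 for the latter). Of the largest single differences Gm14685 had -5.18 and Akr1cl, which was below background in 3 of the 4 groups, had -5.58.

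Between EpiLC and naive cells 4XKO minus 3XKO differed for 3132 probes. The difference was 2.37 for Axin2, 4.36 for Sp5, 3.66 for Tnfrsf19 and 3.70 for Porcn. It was 2.37 for Klf2, 1.77 for Esrrb, 2.44 for Tbx3 and 2.10 for Tcl1, all naive genes. The formative genes Otx2 and Pou3f1 had -2.26 and -6.95, the latter from values near background in naive cells. Lefty2 had 3.98, Pglyrp1 6.06 and 2510009E07Rik 6.43. The mean of 2510009E07Rik was -0.4 in 3XKO EpiLC and 32.9 in 4XKO EpiLC, so the floor sets much of the size of its difference.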

How the results depend on the processing

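The 3265 probes became 1738 with the spread of the 6 compared arrays alone, 850 higher and 888 lower, a fit with few degrees of freedom, and stayed within 1.5 times in all other alternatives run. Leaving out 1 array at a time, the count ranged from 2715 to 3066, that of the difference of Tcf7l1 effects from 2148 to 2495, and that of EpiLC minus naive cells from 2813 to 2953. The replicate block gave 3419, 2775 and 3303 probes for the 3 comparisons. Since the numbers do not pair the arrays, this is given only as a value. The chromosome 1 median was -0.516 with a mean intensity over 50, -0.459 with a mean over 400, and -0.516 to -0.492 as arrays were left out, and the chromosome 6 median was 0.219 to 0.237. No direction reversed.

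Of 120 named genes 73 were called in all 17 alternatives. Of 149 single gene results 37 were lost with the spread of the compared arrays alone, 8 with each chromosome centred, 7 with a floor at the background limit and 8 with a floor at 16. Genes near the background limit, where the floor sets the fitted change, limit the lists in which most members were dim.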
